A study of Mus musculus with 24 samples.

Results

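The probes described here were raised by lactogenic hormones in control HC11 cells and differed little between hormone-treated cells that overexpress the noncoding RNA *mPINC* and cells that carry the empty GFP vector. They number 42 of the 55681 non-control probes of the array and carry 35 gene symbols, with 5 probes left without a symbol. They were selected on measured values, namely the log2 values of the deposited series matrix. Membership required a rise of at least 1.5 with hormones in the group means of the control siRNA cells, a difference between -0.25 and 0.25 of LeGO-1.0/1.6 from LeGO-GFP cells, and the mark of a well detected spot on all arrays of hormone-treated siNEG, LeGO-GFP and LeGO-1.0/1.6 samples. Of the 22231 probes passing the last criterion, 624 met the hormone criterion. Among these, 541 were lower by more than 0.25 in LeGO-1.0/1.6 cells, 41 were higher by more than 0.25, and the 42 members lay between.

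HC11 cells are a clonal epithelial line from mouse mammary gland that can be kept undifferentiated or driven by hormones towards a secretory state. Gene expression was measured on 24 Agilent 1-colour arrays. Undifferentiated (-LH) cells carried a control siRNA (siNEG, labelled siNegative), a pair of siRNAs for the 1.0 and 1.6 forms of *mPINC* that spares the *DCR2* form (siPINC1.0/1.6, labelled siPINC1/6) or a pair that hits every splice form (siPINC), with n = 2 cultures each. Differentiated (+LH) cells, treated with hydrocortisone, insulin and prolactin, carried the same siRNAs or lentiviral vectors for GFP (LeGO-GFP), both *mPINC* forms (LeGO-1.0/1.6, labelled LeGO-1/6) or a form without the most conserved regions (LeGO-DCR), with n = 3 each. The siRNAs were used at 10 nM. The lentivirus cells were transduced, passaged and frozen, with no cloning step described, and no -LH arrays of them were analysed here. The duration of hormone treatment of the array cultures is not given in the sources used here. By the methods insulin was in the medium before differentiation too, and hydrocortisone and prolactin were the additions. Cells first passed from growth medium with EGF and calf serum to priming medium with stripped horse serum. The medium of the -LH cultures is not stated, so hormones, medium and culture time cannot be told apart in the changes called hormone changes below.

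Hydrocortisone acts through the glucocorticoid receptor, and prolactin through JAK2 and STAT5, and together with insulin they drive mammary epithelial cells towards milk production. Interferon-stimulated genes respond to another branch of JAK and STAT signalling, in which STAT factors and IRF9 bind elements with repeated GAAA motifs in promoters. The members contain genes of the latter kind beside receptors, signalling proteins and metabolic enzymes, and they are described here by these roles. The role groups were drawn up from textbook knowledge once the members were known, so their counts and medians are descriptions without a test.

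The interferon-related members were *Irf7* and *Irf9*, transcription factors of the interferon response, *Ifi44*, *Ifit3b*, *Rtp4* and *Phf11d*, interferon-inducible genes, *Igtp*, an immunity-related GTPase, and *Apol9a* and *Apol9b*, apolipoprotein L genes. They made up 10 probes of 9 genes. *Apol9a* and *Apol9b* are near-identical paralogs whose probes may not tell them apart. The promoter windows of 4 of these genes are shown because they hold the 9-letter core GAAANNGAA. These genes rose with hormones in both knockdowns, as all members did. The core is given in capitals on whichever strand it was found, so that a match on the other strand reads TTCNNTTTC. Sequences are from RefSeq (GRCm38.p6), read 5′ to 3′ on the strand of the gene, from 250 bases before to 50 bases after its start. The windows lie at chr3:151749861-151750160 (minus strand), chr19:34607707-34608006 (plus strand), chr11:58199306-58199605 (plus strand) and chr15:77411031-77411330 (minus strand), in the order printed.
Ifi44: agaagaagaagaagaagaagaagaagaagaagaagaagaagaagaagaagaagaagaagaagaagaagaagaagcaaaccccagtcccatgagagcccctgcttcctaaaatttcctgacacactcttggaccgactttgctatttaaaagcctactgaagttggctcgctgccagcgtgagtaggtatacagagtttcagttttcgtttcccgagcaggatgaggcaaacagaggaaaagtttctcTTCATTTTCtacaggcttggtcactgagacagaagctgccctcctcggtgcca
Ifit3b: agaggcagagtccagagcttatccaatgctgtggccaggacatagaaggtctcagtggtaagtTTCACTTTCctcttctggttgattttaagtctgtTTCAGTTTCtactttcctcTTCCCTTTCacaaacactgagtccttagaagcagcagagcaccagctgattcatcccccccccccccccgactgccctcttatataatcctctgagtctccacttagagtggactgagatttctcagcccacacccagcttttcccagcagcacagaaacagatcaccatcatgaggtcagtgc
Igtp: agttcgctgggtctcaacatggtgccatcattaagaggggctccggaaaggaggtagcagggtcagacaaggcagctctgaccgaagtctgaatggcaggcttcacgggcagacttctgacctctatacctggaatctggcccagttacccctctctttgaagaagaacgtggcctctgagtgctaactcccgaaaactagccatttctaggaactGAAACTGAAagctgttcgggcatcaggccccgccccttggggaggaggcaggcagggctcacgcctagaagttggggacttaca
Apol9a: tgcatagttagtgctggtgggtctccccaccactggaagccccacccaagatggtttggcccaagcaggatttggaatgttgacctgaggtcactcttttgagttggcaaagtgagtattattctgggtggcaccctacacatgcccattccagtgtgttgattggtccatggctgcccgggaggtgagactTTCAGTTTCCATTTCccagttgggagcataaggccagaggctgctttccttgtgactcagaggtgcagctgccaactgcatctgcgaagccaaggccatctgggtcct

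A promoter window was found for 30 of the 35 member genes, 39 windows in all. The core GAAANNGAA, on either strand, was present in 11 of the 39 windows (28.2%) against 8.56% of all 32851 windows of the same length. This motif was added once the members had been seen. It was found in 7 of the 11 windows of the interferon-related genes, namely those of *Apol9a*, *Apol9b*, *Ifi44*, *Ifit3b* and *Igtp*, where windows of 1 gene overlap, and also for *Clec2e*, *Glul*, *Pik3ip1* and *Vldlr*. The *Ifit3b* window holds 3 matches and the *Apol9a* window 2 overlapping ones. The *Apol9b* windows hold the same 2 within near-identical letters, so 1 duplicated stretch is counted repeatedly in the 28.2% and in the 7 of 11 windows. The core ACANNNTGT of the glucocorticoid element occurred in 2.56% of the members' windows (*Glul* alone) and 6.85% of all windows. The STAT element TTCNNNGAA occurred in 5.13% (*Igtp* and *Pde4dip*) and 8.30%, and TATAAA in 10.3% and 13.6%. The element GAAANNGAA can share letters with TTCNNNGAA, whose matches were counted independently. A match describes letters in the window and not binding.

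**Figure D1:**
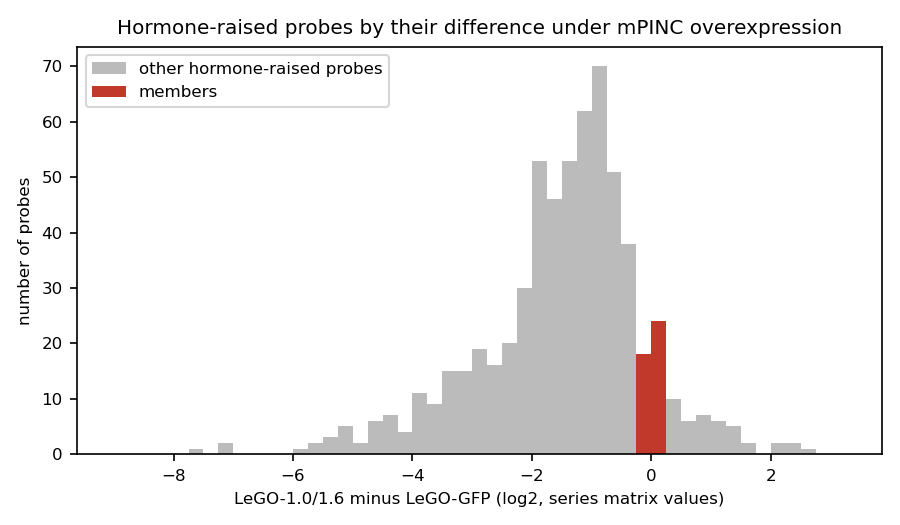
Number of hormone-raised probes (y axis) by the difference of LeGO-1.0/1.6 from LeGO-GFP cells in the log2 values of the series matrix (x axis, bins of 0.25). The 42 members, in red, were picked from the 624 probes by this difference, and most of the others, in grey, lie to the left of them.

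The *mPINC* probe averaged 13.44 ± 0.086 (log2 signal, SD, n = 3) in LeGO-1.0/1.6 cells and 6.07 ± 0.263 in LeGO-GFP cells. In LeGO-DCR cells it averaged 6.06 ± 0.121. Without hormones it averaged 6.33 ± 0.084 (SD, n = 2) with siPINC1.0/1.6 and 6.28 ± 0.164 with siPINC, against 7.44 ± 0.047 with siNEG. With hormones the averages were, in the same order, 5.06 ± 0.211, 4.37 ± 0.338 and 4.87 ± 0.134 (SD, n = 3), with the probe well above background on 2, 1 and 2 of 3 arrays. These levels lie near background, so the extent of the knockdown in +LH cells could not be measured. Between 24012 and 35763 probes per array were well above background. LeGO-1.0/1.6 replicate 1 stood apart, with the highest of these numbers and 644 outlier spots against 280 or fewer on the other arrays. All -LH arrays, siNEG +LH replicate 1 and LeGO-GFP replicate 1 shared 1 slide, and the remaining siRNA and lentivirus arrays each had a slide of their own. Of 9 luminal markers 7 and of 9 basal markers 6 were well above background on all arrays. Of the immune markers *Cd3e* and *Itgam* were above on all 24 arrays, while *Ptprc* was above on 7 and *Lyz2* on 2, and the summed log2 level of the 8 markers measured was 11.51 to 11.62 in siNEG -LH and 12.15 to 12.31 in siNEG +LH cells. In the fibroblast list 5 of 9 genes were higher and 4 lower with hormones in siPINC1.0/1.6 cells, and *Dcn* changed by 7.99. The part of these levels in the results below was not tested.

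How the members chosen in siNEG cells responded to hormones was measured in the knockdown cells, whose arrays did not enter the choice. All 42 probes were higher with hormones in siPINC1.0/1.6 cells at an adjusted p under 0.05 (limma, adjusted over all 55681 probes), where 14.2% of all probes were called higher. All 42 were also higher in siPINC cells, where 13.5% of all probes were. Median log2 changes of the members were 2.24 with siPINC1.0/1.6 and 2.01 with siPINC, against 0.01 over all probes in both, and single changes ran from 0.96 to 5.46 and from 1.25 to 5.85. Some probes were not detected without hormones, and with these at the lower bound given below for such probes the medians were 2.10 and 1.99. The largest adjusted p among the members was 0.00446 and 0.0168, respectively, from limma. Every +LH array lay above every -LH array for all 42 members in both knockdowns, as it did for 25.0% and 24.8% of all probes. Of the 541 hormone-raised probes that were lower in LeGO-1.0/1.6 cells, 534 (98.7%) were called higher in each knockdown, with medians of 2.22 and 2.10. Whether the members differ from these probes was not tested. The arrays measure RNA of whole cultures, so fewer cells of a kind and less RNA per cell cannot be told apart.

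Hormone treatment and slide went together in the knockdown cells. With a term for the slide, 41 members were called in each knockdown and the median changes were 2.13 and 2.07. The member lost was A_55_P2163338, a dim probe without a symbol, with changes of 1.98 (adjusted p = 0.0536, limma) and 1.596 (adjusted p = 0.133). The slide term could be estimated only from siNEG +LH and LeGO-GFP arrays, the groups spread over more than 1 slide. Both groups were also used to choose the members. On the first slide alone, siNEG +LH replicate 1 exceeded the siNEG -LH mean by a median of 2.15 over the members, against 2.10 from all siNEG arrays. The siNEG arrays chose the members by their rise, so this value was largely fixed by the rule and nothing is read from it about the slide.

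**Figure D2:**
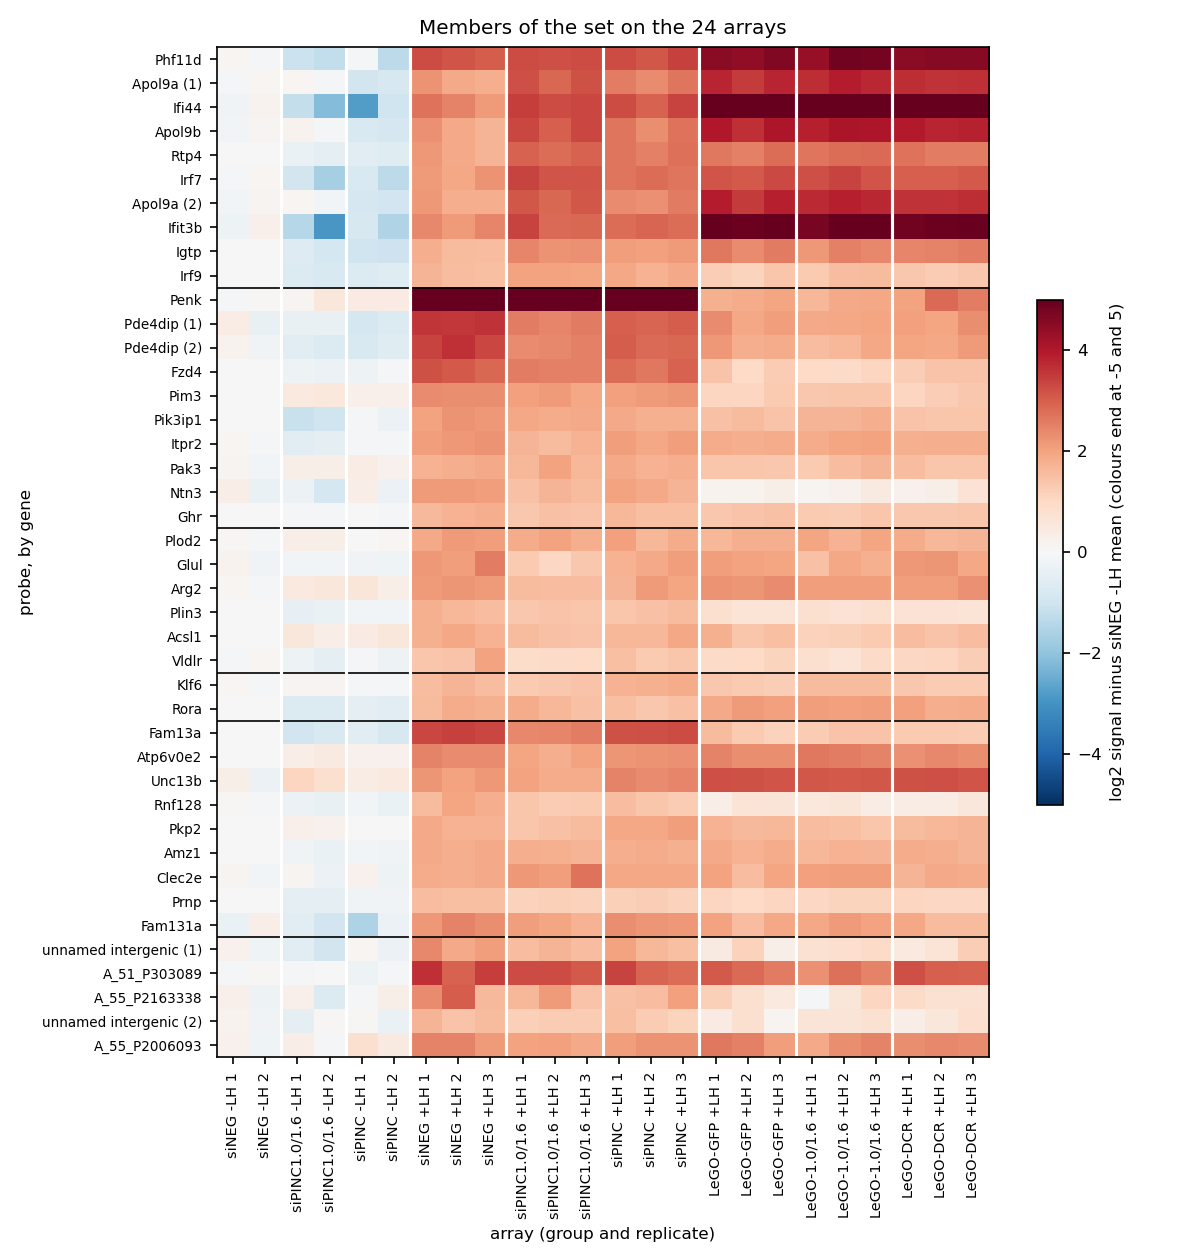
Log2 signal of the 42 member probes (rows, grouped by role) on the 24 arrays (columns), minus the mean of the siNEG -LH arrays of each probe. Red is higher and blue lower than that mean, and the colours end at -5 and 5. The upper block of 10 interferon-related probes is bluest in -LH knockdown cells and reddest in lentivirus cells, while *Penk* is reddest in the +LH siRNA cells.

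The interferon-related members had larger changes in knockdown cells than most others. Their median log2 change reached 3.22 with siPINC1.0/1.6 and 3.39 with siPINC, against 1.80 and 1.91 in the other 32 probes, and 1.98 with siNEG, where the rule chose them. *Irf7*, a master regulator of type I interferon genes, had normalized log2 signals of 5.21 and 4.45 in siPINC1.0/1.6 -LH cells and 9.48, 9.25 and 9.25 in siPINC1.0/1.6 +LH cells. It had 5.34 and 4.80 in siPINC -LH cells and 8.79, 8.90 and 8.78 in siPINC +LH cells. The -LH and +LH arrays did not overlap, and the log2 change was 4.50 (standard error 0.213, adjusted p = 5.9e-08, limma) in siPINC1.0/1.6 and 3.76 (adjusted p = 2.52e-07) in siPINC cells. With siNEG the same probe read 6.04 and 6.2 without and 8.24, 8.07 and 8.35 with hormones. Both knockdowns were therefore below siNEG without hormones and above it with hormones on every array.

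*Ifi44*, an interferon-inducible gene, had log2 signals of 4.2 and 3.25 without and 8.85, 8.68 and 8.76 with hormones in siPINC1.0/1.6 cells, a log2 change of 5.04 (standard error 0.448, adjusted p = 6.71e-06, limma). In siPINC cells it had 2.61 and 4.42 without and 8.67, 8.35 and 8.80 with hormones, a change of 5.09 (adjusted p = 7.13e-06). It was well above background on 1 of 2 -LH arrays in each knockdown. *Ifit3b*, of the IFIT family of antiviral proteins, was not well above background in siPINC1.0/1.6 -LH cells and was at least 13.8-fold higher with hormones (adjusted p = 1.35e-06, limma). For such probes the bright group's mean was divided by a floor, which is the lowest signal of a well detected probe on each dim array, or the signal of the probe itself where that is higher, averaged over those arrays. *Phf11d* was at least 11.1-fold higher by the same measure (adjusted p = 4.25e-07). In siPINC cells, where 1 of 2 -LH arrays measured them, their log2 changes were 3.99 and 3.98.

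*Rtp4*, which encodes an interferon-inducible receptor transporter, was bright throughout. Its log2 signals were 10.93 and 10.82 without and 14.22, 14.06 and 14.22 with hormones in siPINC1.0/1.6 cells, a change of 3.29 (standard error 0.126, adjusted p = 1.4e-08, limma). *Igtp* changed by 3.08 with siPINC1.0/1.6 and 3.11 with siPINC, and *Irf9*, a DNA-binding partner of STAT factors in that response, by 2.74 and 2.51. The *Apol9a* and *Apol9b* probes changed by 3.04 to 3.15 in siPINC1.0/1.6 and by 3.31 to 3.39 in siPINC cells.

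Against siNEG cells, whose arrays chose the members, all 10 interferon-related probes were higher in +LH cells of either knockdown, with median log2 differences of 0.95 (siPINC1.0/1.6) and 0.52 (siPINC). In -LH cells 8 of them were lower in siPINC1.0/1.6 and 10 in siPINC cells, with medians of -0.75 and -0.88. The other 32 members ran the other way with hormones, 31 of them lower in siPINC1.0/1.6 and 26 lower in siPINC than in siNEG cells, with medians of -0.35 and -0.20. The hormone-raised probes outside the set had differences of a like size. Of the 541 lowered by overexpression 477 were lower in siPINC1.0/1.6 and 366 in siPINC cells (medians -0.33 and -0.13), and of the 41 raised by it 33 and 24 (medians -0.31 and -0.15). Over all probes the medians of the 4 comparisons lay between -0.014 and -0.002. These differences are given without a test.

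**Figure D3:**
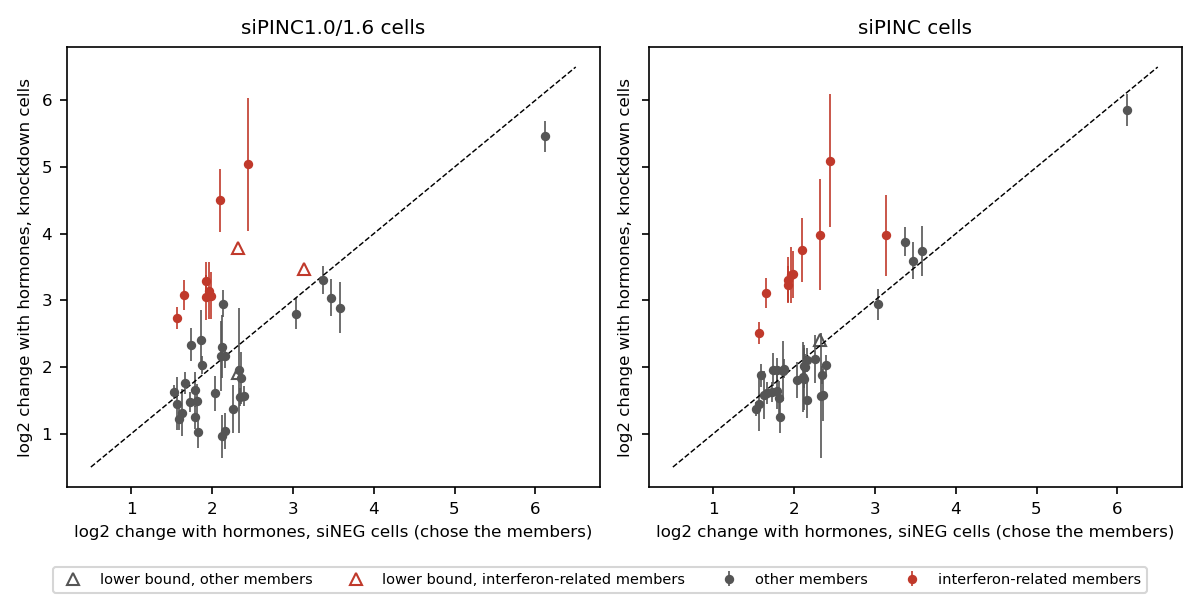
Log2 change with hormones in knockdown cells (y axis, siPINC1.0/1.6 at left and siPINC at right, with 95% confidence intervals from limma) against the change in siNEG cells that chose the members (x axis), with 1 point per probe and a dashed line of equal change. Open triangles are lower bounds, without intervals, for probes not well above background in the -LH cells of that knockdown, and the NM_024477 probe, undetected in siNEG -LH cells too, is left out. The interferon-related probes detected in both states, in red, have changes of 2.51 to 5.09 and lie above the line, and most other members, in grey, lie closer to it.

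*Irf7*, *Irf9*, *Ifi44* and *Rtp4* also belong to a list of interferon-stimulated genes, 22 of which were measured. In that list 18 genes were higher and 1 lower with hormones in siPINC1.0/1.6 cells and 19 were higher in siPINC cells, with median changes of 2.66 and 2.63 against 0.01 over all probes. *Oas2*, *Usp18* and *Xaf1* were also raised in siNEG cells by the hormone criterion but fell outside the overexpression band. In LeGO-1.0/1.6 relative to LeGO-GFP cells *Oas2*, which encodes an oligoadenylate synthetase, had a log2 difference of -2.19, and *Usp18*, a deconjugase of ISG15, 0.80. *Stat2* and *Bst2* had 1.58 and 1.63, and the median difference over the list was 0.63.

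Signalling genes formed the next group. *Penk*, which encodes the opioid precursor proenkephalin, had the largest change of any member. Its log2 signals in siPINC1.0/1.6 cells were 5.41 and 5.84 without and 11.11, 11.10 and 11.03 with hormones, a change of 5.46 (standard error 0.107, adjusted p = 2.3e-10, limma). In siPINC cells it had 5.71 and 5.71 without and 11.62, 11.60 and 11.47 with hormones, a change of 5.85 (adjusted p = 1.77e-10). The groups were far apart in both knockdowns. *Fzd4*, a Wnt receptor, changed by 2.80 and 2.94, and the 2 probes of *Pde4dip*, an anchor of phosphodiesterase 4D, by 2.89 and 3.04 in siPINC1.0/1.6 and by 3.74 and 3.60 in siPINC cells. *Pik3ip1*, an inhibitor of phosphatidylinositol 3-kinase, changed by 2.95 and 2.01, *Itpr2*, a calcium channel of the endoplasmic reticulum, by 2.17 and 2.10, and *Pim3*, a serine/threonine kinase, by 1.55 and 1.88. *Ghr*, the growth hormone receptor, had log2 signals of 9.17 and 9.16 without and 10.58, 10.67 and 10.66 with hormones in siPINC1.0/1.6 cells. Its changes of 1.47 and 1.63 were smaller, but the -LH and +LH arrays were again well apart. A second *Ghr* probe, A_51_P499854, also rose with hormones, by 1.78 and 1.94, but was no member, as its LeGO-1.0/1.6 minus LeGO-GFP difference was -0.90, against -0.10 for the member probe.

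Metabolic genes had smaller changes. *Glul*, glutamine synthetase and the only member among 41 listed glucocorticoid receptor target genes, had log2 signals of 5.40 and 5.41 without and 6.85, 6.57 and 6.90 with hormones in siPINC1.0/1.6 cells, a change of 1.37 (standard error 0.163, adjusted p = 6.62e-05, limma). In siPINC cells it rose by 2.12 (adjusted p = 2.56e-06). *Plin3*, a lipid droplet coat protein, rose by 1.76 and 1.61, and *Acsl1*, a long-chain acyl-CoA synthetase, by 1.03 and 1.25. The brighter *Acsl1* probe A_51_P496432 rose by 1.503 and 1.67 but had a LeGO-1.0/1.6 minus LeGO-GFP difference of -0.90 and was no member, so the *Acsl1* probes disagree on overexpression, as those of *Ghr* do. Of the 34 genes measured in a list of lipid synthesis and uptake, 7 were higher and 20 lower in siPINC1.0/1.6 cells. *Plin3* and *Acsl1*, chosen for rising in siNEG cells, thus moved against most of this list. The share of all probes called lower is not given here. *Arg2*, mitochondrial arginase, rose by 1.04 and 1.501, *Vldlr*, the very-low-density lipoprotein receptor, by 1.32 and 1.58, and *Plod2*, a collagen lysyl hydroxylase, by 1.605 and 1.81. *Vldlr* and *Pde4dip* also had another well detected probe each, which rose by less than the hormone criterion in siNEG cells and had LeGO-1.0/1.6 minus LeGO-GFP differences of 0.615 and 1.09.

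Of the transcription factors outside the interferon group, *Klf6* rose by 1.22 with siPINC1.0/1.6 and 1.88 with siPINC, and *Rora*, a nuclear receptor of the circadian clock, by 2.33 and 1.96. Among 19 circadian genes, of which *Rora* was the only member, 14 were higher and 2 lower in siPINC1.0/1.6 cells. In siPINC cells 11 were higher and 2 lower. Of all probes 14.2% and 13.5% were called higher. *Fam13a*, a RhoGAP-domain gene, rose by 3.31 and 3.88, *Prnp*, the prion protein gene, by 1.62 and 1.37, and *Unc13b*, a regulator of vesicle priming, by 0.96 and 2.01. *Fam131a* was not well above background in -LH cells of either knockdown and was at least 3.76-fold and 5.29-fold higher with hormones (adjusted p = 5.22e-05 and 1.69e-05, limma). The probe for accession NM_024477, without a symbol here, was at least 2.10-fold and 2.11-fold higher by the same measure (adjusted p = 6.07e-07 and 8.25e-07).

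None of the members was on the lists of prolactin and STAT5 targets (25 genes), milk protein and secretory activation genes (29 measured), acute phase and innate defence genes (33), junction and barrier genes (22), detoxification and redox genes (37) or proliferation genes (30). Members make up 0.174% of all genes measured, so lists of this size would mostly hold none, and nothing is read from these counts. Among the same genes 3, 6, 3, 2, 0 and 0 met the hormone criterion in siNEG cells. With hormones in siPINC1.0/1.6 cells, genes were called higher and lower in these lists as 13 and 5, 13 and 5, 6 and 14, 14 and 1, 5 and 18, and 0 and 28, respectively. Of all probes 14.2% were called higher in that comparison. The share called lower is not given here, so nothing is read from the counts of lower genes.

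The hormone effects of the 2 knockdowns were compared by a test of their difference. By the paper the 2 siRNA pairs share an siRNA and differ in the other. The forms targeted and the siRNA sequence therefore cannot be told apart in this difference. The effects differed for 5 of the 42 members, against 1.55% of all probes. They also differed for 99 of the 541 hormone-raised probes lowered by overexpression and 10 of the 41 raised by it. Such a difference was thus not particular to the members. *Pik3ip1* had the larger effect in siPINC1.0/1.6 cells, by 0.95 on the log2 scale (standard error 0.126, adjusted p = 0.00488, limma). Its log2 signals were 8.43 and 8.54 in siPINC1.0/1.6 -LH but 9.46 and 9.25 in siPINC -LH cells, while the +LH arrays of both lay between 11.33 and 11.47. The knockdowns differed by -0.87 (adjusted p = 0.000937) without hormones and by 0.07 (adjusted p = 0.803) with them.

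The other 4 had smaller effects in siPINC1.0/1.6 cells. *Pkp2*, the desmosomal protein plakophilin 2, had log2 signals of 10.52 and 10.49 without and 11.66, 11.74 and 11.86 with hormones in siPINC1.0/1.6 cells. In siPINC cells it had 10.28 and 10.32 without and 12.22, 12.21 and 12.36 with hormones, and the effects differed by -0.72 (standard error 0.111, adjusted p = 0.0105, limma). The 2 knockdowns did not overlap in either state, with differences of -0.51 (adjusted p = 0.00575) in +LH and 0.21 (adjusted p = 0.309) in -LH cells. *Klf6* differed by -0.66 (adjusted p = 0.0162), *Unc13b* by -1.05 (adjusted p = 0.0361) and *Atp6v0e2*, a subunit of the vacuolar proton pump, by -0.46 (adjusted p = 0.0455). Under 24 other processings the call was kept in 24 for *Pik3ip1* and *Pkp2*, 22 for *Klf6*, 11 for *Unc13b* and 8 for *Atp6v0e2*, all with the same sign. Leaving out 1 array left between 3 and 7 of the 42 members called.

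**Figure D4:**
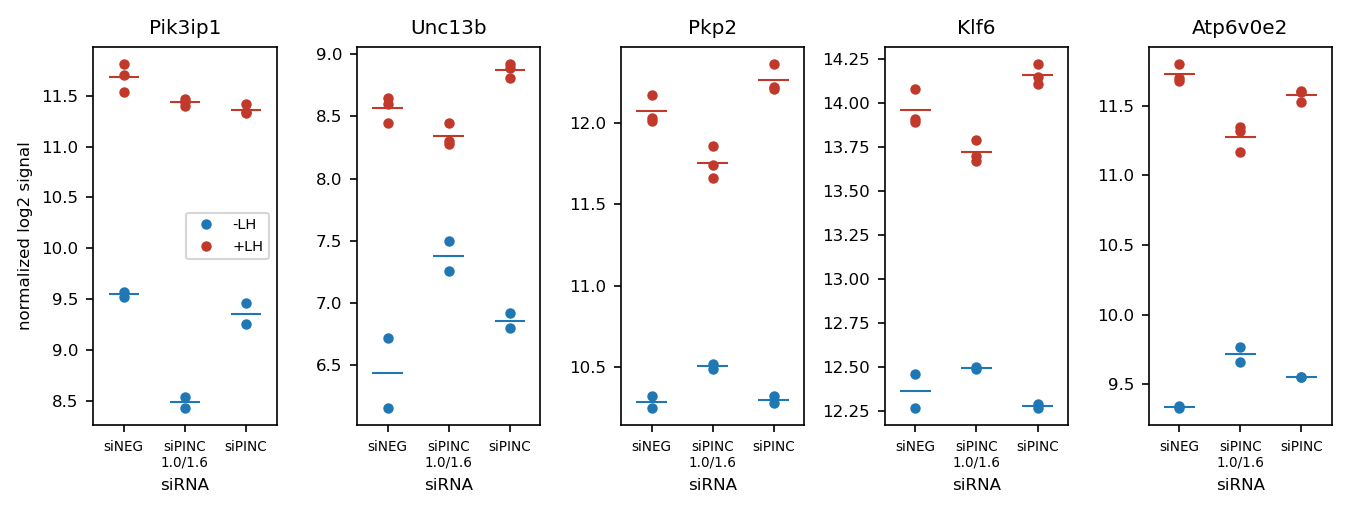
Normalized log2 signals (y axis, with a scale for each gene) of the 5 members whose hormone effect differed between the knockdowns, by siRNA (x axis), with 1 point per array, blue for -LH and red for +LH cells, and lines for group means. *Pik3ip1* is lowest in siPINC1.0/1.6 -LH cells, and *Pkp2* and *Klf6* are lower in siPINC1.0/1.6 than in siPINC +LH cells.

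Between the knockdowns with hormones, 6 members differed (1.56% of all probes), all lower in siPINC1.0/1.6 cells. These were *Fam13a* (log2 difference -0.75, adjusted p = 0.00207, limma), *Pkp2* (-0.51), *Penk* (-0.48), *Klf6* (-0.44), *Itpr2* (-0.37) and *Atp6v0e2* (-0.30). *Fam13a* read 8.74, 8.81 and 8.91 in siPINC1.0/1.6 and 9.52, 9.58 and 9.60 in siPINC +LH cells, without overlap. Called or not, 27 of the 42 members were lower in siPINC1.0/1.6 +LH cells, with a median of -0.09. Of the 541 hormone-raised probes lowered by overexpression 434 were lower there (median -0.20), and of the 41 raised by it 31 (median -0.20). This direction was thus not particular to the members. Without hormones 6 members differed (3.62% of all probes). The *Apol9a* probes (0.88 each, adjusted p = 0.0208 and 0.0161, limma) and the *Apol9b* probe (0.88, adjusted p = 0.0489) were higher in siPINC1.0/1.6 cells, and *Pik3ip1* (-0.87), *Itpr2* (-0.44, adjusted p = 0.0262) and *Prnp* (-0.29, adjusted p = 0.0151) were lower. The methods' t-test with Benjamini-Hochberg adjustment called 0 members in either comparison. By limma 22 and 16 members had an unadjusted p under 0.05, as did 10.9% and 14.2% of all probes. Leaving out 1 array left between 2 and 7 members called in each comparison.

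The overexpression difference itself chose the members and is given without a test. From the processed signals used for all other values, LeGO-1.0/1.6 minus LeGO-GFP ran from -0.35 (*Acsl1*) to 0.27 (*Klf6*) with a median of 0.05, and 36 of the 42 members lay within 0.25 of 0. Leaving out 1 array moved these limits. The differences ran from -0.32 to 0.31 without LeGO-1.0/1.6 replicate 1, which stood apart, from -0.46 to 0.28 without its replicate 2 and from -0.54 to 0.27 without its replicate 3, with 35, 34 and 33 members within 0.25 of 0. They ran from -0.27 to 0.31 without LeGO-GFP replicate 1, which alone of the lentivirus arrays was on the first slide, from -0.43 to 0.503 without its replicate 2 and from -0.45 to 0.29 without its replicate 3, with 37, 30 and 31 members within 0.25. Among probes with a symbol, the series matrix value nearest inside the hormone threshold was 1.504 (*Fam131a*), followed by 1.506 (*Prnp*) and 1.515 (*Clec2e*), and those nearest outside it were 1.488 (*Echdc3*), 1.485 (*Hexa*) and 1.465 (*Tubb2b*). At the overexpression threshold the nearest inside were 0.243 (*Klf6*), 0.243 (*Pik3ip1*) and 0.238 (*Pim3*), and outside -0.257 (*Sptlc3*), -0.274 (*Lgals3bp*) and 0.287 (*Nudt4*). Of the probes without a symbol, A_30_P01025818 lay just outside at 0.264 and A_55_P2129309 at -0.277. The former targets the same intergenic transcript as 2 members, which had 0.233 and 0.186.

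A small difference between the 2 lentivirus groups did not mean equal levels in lentivirus and siRNA cells. In LeGO-GFP cells the members stood between the siNEG -LH and siNEG +LH means for 29 probes and at or above siNEG +LH for 13, with none at or below siNEG -LH. All LeGO-GFP arrays were above all siNEG +LH arrays for 11 members (14.4% of all probes) and below them for 22 (18.2% of all probes). The siNEG arrays were used to choose the members, lentivirus and siRNA cells differed in vector, transfection and slide, and these cannot be told apart here.

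The interferon-related members were the higher ones. For 9 of their 10 probes every LeGO-GFP array exceeded every siNEG +LH array, with *Irf9* the exception, and the median difference was 1.56 on the log2 scale. *Ifi44* read 10.45, 10.59 and 10.88 in LeGO-GFP, 10.72, 10.80 and 10.91 in LeGO-1.0/1.6 and 10.76, 10.57 and 10.62 in LeGO-DCR cells, against 8.12, 7.88 and 7.55 in siNEG +LH cells. The 3 vectors overlapped and all lay above the siRNA control. *Ifit3b* read 10.27, 9.94 and 10.35 in LeGO-GFP cells against 7.43, 7.18 and 7.49 in siNEG +LH cells, and 9.78, 10.28 and 10.29 in LeGO-1.0/1.6 cells. On the first slide alone, LeGO-GFP replicate 1 exceeded siNEG +LH replicate 1 for 9 of the 10 probes, with a median of 1.40.

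The other 32 members had a median of -0.49 in LeGO-GFP relative to siNEG +LH cells. *Penk* read 7.07, 7.15 and 7.27 in LeGO-GFP cells and 6.93, 7.19 and 7.20 in LeGO-1.0/1.6 cells, against 11.39, 11.43 and 11.41 in siNEG +LH and 5.22 and 5.35 in siNEG -LH cells. Its mean in LeGO-GFP cells thus covered 30.7% of the siNEG rise, and no vector reached the siRNA level. *Ntn3*, a netrin, covered 10.7%, *Rnf128*, an E3 ubiquitin ligase, 30.7%, *Fam13a* 40.0%, *Fzd4* 40.6%, *Plin3* 43.9% and *Pim3* 49.1%. *Unc13b* and *Rora* were exceptions, with every LeGO-GFP array above every siNEG +LH array. *Unc13b* read 9.67, 9.63 and 9.57 in LeGO-GFP against 8.65, 8.45 and 8.60 in siNEG +LH cells. Over all 42 members the median was 84.7% of the siNEG rise, and over the 541 probes lowered by overexpression it was 81.8%.

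**Figure D5:**
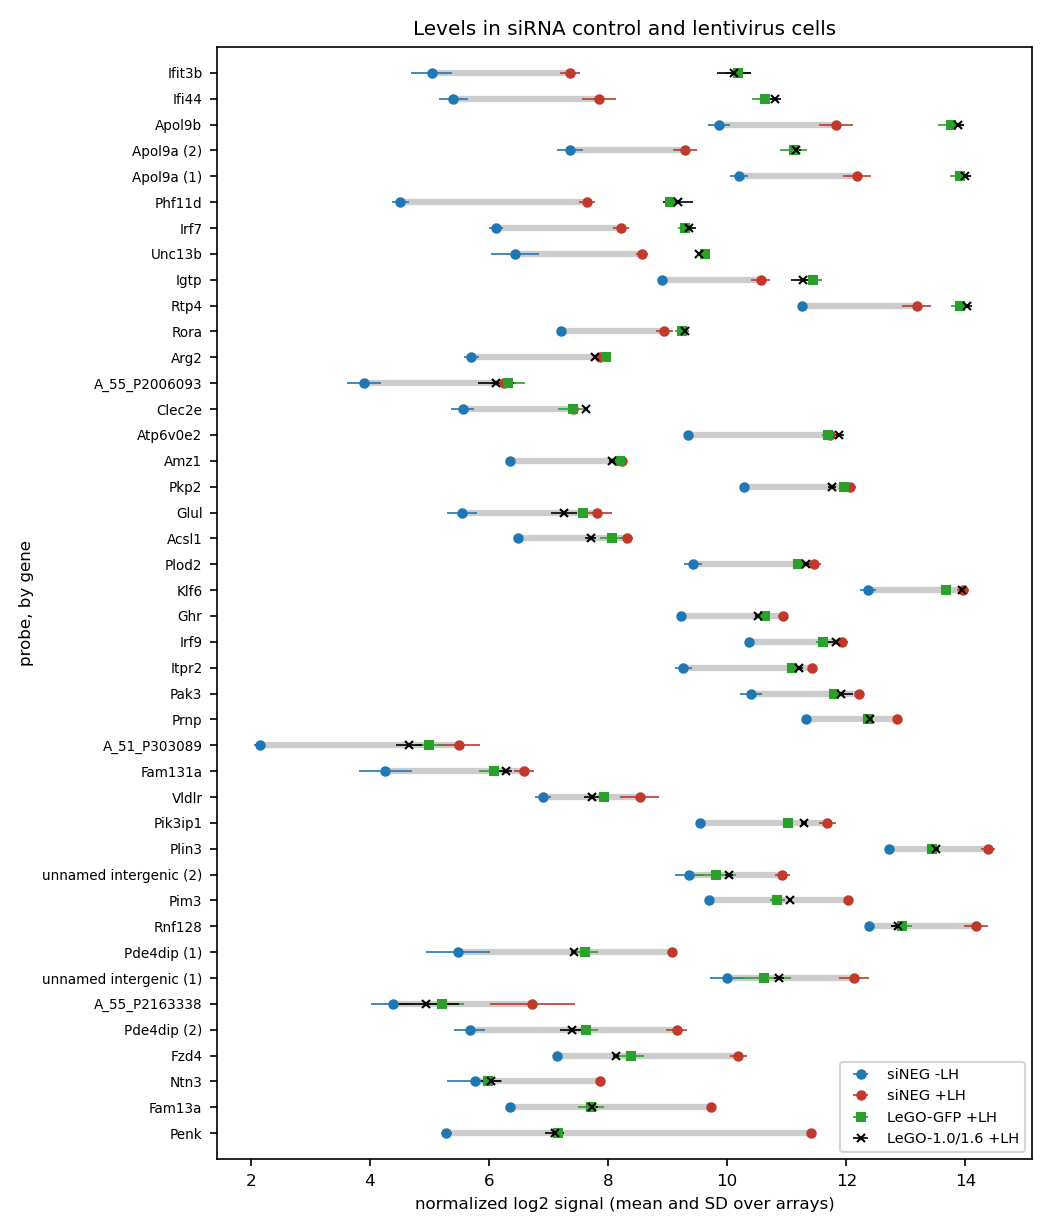
Normalized log2 signal (x axis, mean and SD over arrays) of each member (rows, ordered by LeGO-GFP minus siNEG +LH) in siNEG -LH (blue), siNEG +LH (red), LeGO-GFP +LH (green squares) and LeGO-1.0/1.6 +LH cells (black crosses), with a grey bar for the siNEG rise. Squares and crosses nearly coincide by the choice of the members, and lie beyond the bar for interferon-related probes at the top and near its lower end for *Ntn3* and *Penk* at the bottom.

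LeGO-DCR cells, which carry the deletion form, were compared with the GFP vector, whose arrays had been used in choosing the members. The *mPINC* probe did not register the deletion form, with 6.06 in LeGO-DCR and 6.07 in LeGO-GFP cells. The paper reports its overexpression by qPCR, and whether the array probe covers the deleted regions was not examined. The log2 differences of LeGO-DCR from LeGO-GFP ran from -0.26 (*Ifit3b*) to 0.60 (*Penk*), with a median of -0.03. *Penk* read 7.30, 8.13 and 7.85 in LeGO-DCR cells, above the LeGO-GFP arrays, and *Ntn3* differed by 0.19. By limma 0 members and 0.0736% of all probes were called. The unadjusted p from limma was under 0.05 for 1 member (*Penk*) and 4.52% of all probes. The methods' t-test with Benjamini-Hochberg adjustment called 0 members. With so few calls over all probes, and with arrays shared with the choice of the members, nothing is read from these counts.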

How the data were processed

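RNA of 1 culture per array was labelled with Cy3 and hybridised to Agilent mouse arrays. The authors deposited intensity values of Agilent Feature Extraction 11.0.1.1 for each array, which carry the scanner software's background correction and no scaling across arrays, and a series matrix of log2 values that the authors had quantile normalized. The series matrix ranks the spots of each array as the median signal minus local background does (Spearman correlation 1). The members were chosen on the series matrix. All other values come from the processed signals of 59305 non-control spots, converted to log2 and then quantile normalized over the 24 arrays. Outlier spots were left out and repeated spots averaged, with no filter on dim probes. No spot was saturated. The number of well detected probes on each array stands for depth, and the number of arrays limits the precision.

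Comparisons used lmFit, contrasts.fit and eBayes of limma 3.58.1 (R 4.3.3), with 1 fit of the 15 siRNA arrays and 1 of the 9 lentivirus arrays, Benjamini-Hochberg adjustment over all probes and a threshold of 0.05. Summaries and figures were made with pandas 2.3.3, numpy 2.4.6 and matplotlib 3.10.9 under Python 3.11.15. On simulated data with 200 probes changed by a log2 value of 1, the analysis recovered 94% of them in the hormone comparison (8 false calls) and 84.5% in the LeGO-DCR comparison (12 false calls). The changed probes were drawn from the brighter ones, with independent normal noise, no slide effect and all other probes unchanged. These rates therefore do not cover the dim members or differences between slides. Names came from RefSeq accessions (26582 probes) or identifiers in the study's supplement (25), and 29074 probes stayed without a symbol.

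The members and gene lists were chosen with earlier results of these data known. Named by a rule were the genes with the 10 largest and 4 smallest mean hormone changes in knockdown cells, those with the largest called differences between knockdowns (4 in each state), the 3 with the largest LeGO-DCR differences, the 3 nearest each threshold on either side, and every member on a list. Other genes were named after their values were seen. A gene with several member probes was ranked by the brightest. Alternatives were 75th percentile scaling, quantile normalization of the siRNA and lentivirus arrays apart, normexp (offset 50), the series matrix values, bright probes alone, the methods' t-test, a trended robust prior, all arrays in 1 fit with and without the slide, a replicate block, and leaving out each array. The rules for the members were also applied to the processed signals. Counts with the members chosen that way, and with 1 probe per gene, were added after seeing the data. Columns of the authors' own comparisons were not used.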

Additional observations from a re-analysis of the deposited data

Results flagged for a closer look

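The test in limma of the difference in hormone effect between the knockdowns called 1.55% of all probes. It also called 99 of the 541 hormone-raised probes lowered by overexpression and 10 of the 41 raised by overexpression. For 5 of the 42 members the hormone effect differed between siPINC1.0/1.6 and siPINC cells by this test. It was larger in siPINC1.0/1.6 cells by 0.95 on the log2 scale for *Pik3ip1* (standard error 0.126, adjusted p = 0.00488), with values between 0.84 and 1.05 under 24 other processings. It was smaller for the rest, by -1.05 for *Unc13b* (standard error 0.207, adjusted p = 0.0361, range -1.17 to -0.93), by -0.72 for *Pkp2* (0.111, adjusted p = 0.0105, range -0.77 to -0.67), by -0.66 for *Klf6* (0.110, adjusted p = 0.0162, range -0.74 to -0.63) and by -0.46 for *Atp6v0e2* (0.0964, adjusted p = 0.0455, range -0.53 to -0.41). In the -LH state each knockdown had n = 2 arrays, both on 1 slide, and the +LH arrays of the knockdowns were on another. The part of the *mPINC* level in these differences was not tested. The forms targeted and the siRNA sequences used cannot be told apart in them.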

How the results depend on the processing

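All 1350 values of the named genes' hormone changes kept their sign and their side of the threshold. The counts of members higher with hormones stayed between 41 and 42 when 1 array was left out, and A_55_P2163338 was the probe lost. With the members chosen on processed signals, 57 and 59 of 60 were called, and with 1 probe per gene 39 and 39 of 39. The 0 calls for LeGO-DCR were unchanged by every alternative.

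The 5 members whose hormone effect differed between the knockdowns became 3 with 75th percentile scaling, 8 with the trended robust prior and 3 with the replicate block, and 3 to 7 without 1 array. It was 3 without any 1 of siNEG +LH 1, 2 or 3, siPINC1.0/1.6 +LH 1 or 2, or siPINC +LH 1, 2 or 3. The 6 members that differed with hormones became 3 with 75th percentile scaling, 12 with normexp, 11 with bright probes alone, 0 by the methods' t-test, 11 with the trended robust prior, 10 in 1 fit of all arrays and 11 with its slide term, and 2 to 7 without 1 array. It was 3 without siPINC -LH 1 or 2, siNEG +LH 2 or siPINC +LH 1, and 2 without siPINC1.0/1.6 +LH 1 or 2 or siPINC +LH 3. The 6 that differed without hormones became 0 by the methods' t-test and 2 to 7 without 1 array, with 2 without siPINC1.0/1.6 -LH 1 or siPINC -LH 1 or 2 and 3 without siPINC1.0/1.6 -LH 2. The cause of these changes was not tested.

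Replicate numbers were not taken to pair the samples. Deviations of samples with the same number correlated between -0.458 and 0.204 in siRNA (median 0.05) and -0.035 and 0.247 in lentivirus arrays (median 0.07). For different numbers the ranges were -0.342 to 0.342 (median -0.035) and -0.207 to 0.164 (median -0.055). The medians were somewhat higher for the same number, so these values do not settle whether the numbers pair samples. The replicate block gave 42 and 42 members higher with hormones, 5 and 5 different between the knockdowns with and without hormones, and 0 for LeGO-DCR. The number of members became 60 (36 shared) with the rule applied to quantile normalized processed signals, 67 (36 shared) with 75th percentile scaling, 43 spot by spot, and 41 to 49 without 1 array. Of the members, 7 were not well above background on every -LH array, so their changes there depend on dim signals.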
